A study of Mus musculus with 16 samples.

Results

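The comparison described here set liver RNA of mice lacking Zfp36l1 in the liver (LKO) against that of mice with the gene (WT), all fed a diet that contained ethanol. It comprised 8 of the 16 libraries of the series, 4 from LKO and 4 from WT, chosen by their treatment labels. The other 8 libraries, 4 LKO and 4 WT on a control diet, entered the model to estimate the spread and served for comparison. Both ethanol groups thus shared the diet and differed by the label of the gene. The labels name liver as the source and total RNA as the molecule. Strain, sex, age, feeding time, the promoter behind the deletion and any pooling of animals are not given in the sources used here. Nothing in the labels says how the 4 libraries of a group were obtained, so p-values measure only the spread between these libraries. Of 35275 gene IDs in the deposited table, the 11298 with at least 1 FPKM (sequenced fragments corrected for gene length and library size) in at least 4 of the 16 libraries were tested.

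ZFP36L1 belongs to a small family of zinc finger proteins, with ZFP36 and ZFP36L2, that bind AU-rich stretches in the 3′ untranslated region (3′ UTR) of messenger RNAs and recruit the machinery that removes the poly(A) tail. Transcripts bound in this way are short-lived, so loss of such a protein can lengthen the life of its targets. FGF21, named in the study's title, is a hormone that the liver secretes under fasting, ethanol and other metabolic stress. It acts through FGF receptors together with the co-receptor beta-Klotho, the product of Klb.

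The core of the AU-rich element is the 7-mer TATTTAT, and each transcript below is shown because it is Fgf21 itself, a gene called higher in LKO, or Hamp, which had the largest negative difference after Zfp36l1 among genes called without WT ethanol library 2 (a library described further on) and no call with it. Each line gives 30 bases of the longest annotated 3′ UTR, 5′ to 3′ on the transcribed strand, with the 7-mer in capitals (GENCODE M21, GRCm38).
Fgf21, chr7:45613938-45613967, minus strand: ggtatttatctTATTTATttattttagttt
Slc34a2, chr5:53070898-53070927, plus strand: tttatgtggcaTATTTATagctatgcatct
Slc30a10, chr1:185465060-185465089, plus strand: gaacgtcagctTATTTATagcacttataga
Tbc1d31, chr15:57969913-57969942, plus strand: tttttttcaacTATTTATtctaatttttta
Nxpe2, chr9:48318696-48318725, minus strand: tattatttaatTATTTATgtgtacgtgtga
Enpep, chr3:129270121-129270150, minus strand: gctaagtactgTATTTATgtcacgcaaagc
Hamp, chr7:30942407-30942436, minus strand: ctcaaccccatTATTTATtcctgccctccc
Fgf21 held 4 copies in its 134 bases of 3′ UTR, starting at bases 42, 55, 64 and 68, of which the last pair overlaps. Slc30a10 held 2 in 4207 bases, and the other 5 transcripts held 1 each. The longer 9-mer TTATTTATT, which contains the 7-mer, was present in Fgf21 and Hamp and in none of the 5 genes higher in LKO that are shown. Ces3b, the sixth gene called higher, held neither motif and has no line here, so every transcript shown carries the 7-mer by choice. Of all genes tested that had an annotated 3′ UTR, 29.1% held the 7-mer and 7.7% the 9-mer.

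WT ethanol library 2 (EA192WTE) stood apart from every other library, and the counts of calls, the called genes and the gene lists are therefore given with and without it. Tests of single list members and of genes called with a term for the side of each library, introduced further on, come mostly from the fit without it. It held 9890475 reads against 19459817 to 24768569 in the other 7 ethanol libraries, and 22.5% of those reads came from mitochondrial genes, compared with 3.64 to 6.97% in the remaining 15 libraries of the series. Its Spearman correlation across genes with the others was 0.664 to 0.721, against 0.858 to 0.985 among those 15, and it held 96 reads of 4 Y-linked genes where the others held at most 6. Of Xist, an X-linked transcript, it held 1163 reads, against 5148 to 21729 in the other 7 ethanol libraries. Globin and platelet markers summed to 2163 FPKM in it and to 103.8 to 289.3 in the other 7 ethanol libraries. A second feature touched all groups. The main principal component within groups, with 39.96% of the variance there, set libraries 1 and 2 of each group (side A) apart from libraries 3 and 4 (side B). The labels name no batch for this split. Within-side differences are given for Zfp36l1, Fgf21, the genes called with all libraries and the leading genes called without WT ethanol library 2, and without WT ethanol library 2 side A holds a single WT library.

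Zfp36l1 (ENSMUSG00000021127, chromosome 12, 80107754 to 80113013, minus strand) was lower in all 4 LKO ethanol libraries. It measured 0.688, 0.572, 1.60 and 1.76 FPKM in LKO libraries 1 to 4 and 9.87, 13.2, 20.99 and 23.4 in WT libraries 1 to 4. The groups did not overlap, and library 2 of WT lay among its own group. The group means were 1.15 ± 0.611 in LKO and 16.8 ± 6.37 in WT (SD, n = 4 each). On the log2(FPKM + 1) scale the difference was −3.02 (SE 0.321, limma adjusted p = 0.000428), and −3.11 without WT ethanol library 2 (SE 0.335, adjusted p = 0.00115). The exact two-sided permutation test gave p = 0.0286 for 4 against 4 and for 4 against 3, the smallest value either design allows, which came to 0.0571 after adjustment over 4 tests. Within side A the difference was −2.93, or −2.74 against WT library 1 alone, and within side B −3.11.

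The other 2 family members did not pass the test. Zfp36 measured 12.8, 22.9, 22.6 and 30.2 FPKM in LKO libraries 1 to 4 against 20.9, 1.69, 48.2 and 34.7 in WT. Zfp36l2 measured 11.04, 9.78, 13.9 and 9.65 in LKO against 9.27, 1.89, 18.2 and 19.2 in WT. In both genes WT library 2 was the lowest of the 8 libraries, and the sign of the difference turned on it. The log2 difference was 0.31 for Zfp36 and 0.21 for Zfp36l2 with it (limma adjusted p = 0.888 and 0.898), and −0.60 and −0.41 without it (adjusted p = 0.412 and 0.489).

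Fgf21 (ENSMUSG00000030827, chromosome 7, 45613886 to 45615490, minus strand) passed no test. It measured 57.0, 113.3, 63.0 and 9.46 FPKM in LKO libraries 1 to 4 and 16.2, 3.15, 55.3 and 48.9 in WT. The groups overlapped, since LKO library 4 lay below 3 of the 4 WT libraries. The difference was 1.12 on the log2 scale (SE 0.823, limma adjusted p = 0.620, exact permutation p = 0.343, adjusted 0.457), and 0.33 without WT ethanol library 2 (SE 0.752, adjusted p = 0.813, exact permutation p = 0.714). The 2 sides differed in sign, 3.27 in side A (2.24 against WT library 1 alone) and −1.03 in side B. Klb measured 6.24, 5.79, 8.10 and 8.84 FPKM in LKO and 5.31, 0.730, 8.56 and 9.22 in WT, a difference of 0.51 with all libraries and −0.063 without WT library 2 (limma adjusted p = 0.648 and 0.873). None of the 11 genes listed for the FGF21 axis was called, with or without that library.

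With all 16 libraries, 9 of the 11298 genes were called at an adjusted p under 0.05 (0.0797%), 4 higher (0.0354%) and 5 lower (0.0443%) in LKO. In each of the 9, all 4 LKO libraries lay on one side of all 4 WT libraries, an order that 304 of all genes tested showed (2.69%). Without WT ethanol library 2, 25 genes were called (0.221%), 6 higher (0.0531%) and 19 lower (0.168%), and these included the 9. All genes together shifted as well, with a median log2 difference of −0.031 with all libraries and −0.23 without that library. Quantile normalization removed this shift (median −0.00066) and gave 5 higher and 7 lower calls without library 2, and scaling by the median of ratios gave 2 and 3. With all libraries these scalings gave 5 higher and 2 lower calls, and 4 and 2. The counts depended on single libraries. With all 16, they were 387 without WT ethanol library 1, 42 without LKO ethanol library 2, 4 without WT ethanol library 4 or LKO ethanol library 3, and 1, Zfp36l1, without LKO ethanol library 1. Starting without WT ethanol library 2, leaving out a further library gave 1961 (WT ethanol 1), 434 (LKO ethanol 2), 9 (LKO ethanol 3), 3 (WT ethanol 3), 2 (LKO ethanol 1) and 1 (WT ethanol 4).

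**Figure D1:**
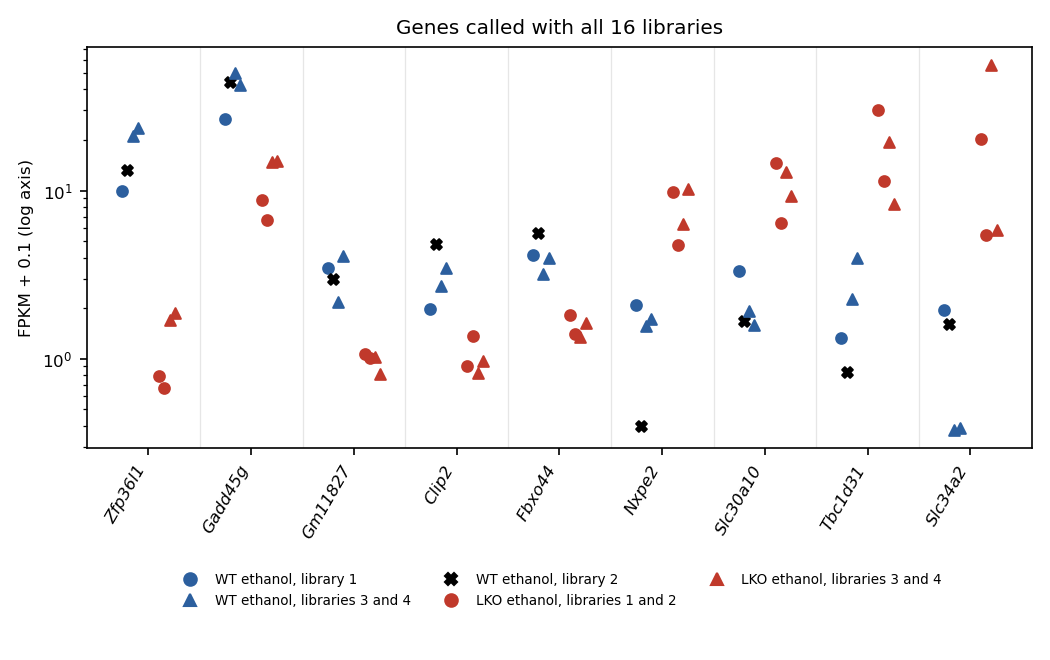
FPKM + 0.1 (log axis) of the 9 genes called with all 16 libraries, 1 point per ethanol library, WT in blue, LKO in red and WT ethanol library 2 as a black cross, circles for side A and triangles for side B. In each gene the 4 LKO points lie on one side of the 4 WT points, as for Gadd45g, with at most 14.8 FPKM in LKO and at least 26.7 in WT.

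Among the genes called higher were a pair of membrane transporters. Slc34a2 (chromosome 5, 53038081 to 53071664, plus strand), a sodium-dependent phosphate cotransporter, measured 20.1, 5.37, 55.6 and 5.76 FPKM in LKO libraries 1 to 4 and 1.86, 1.501, 0.276 and 0.289 in WT. LKO libraries 1 and 3 were the highest, and the lowest LKO library was above the highest WT library. The log2 difference was 3.02 (SE 0.506, limma adjusted p = 0.0243), and 3.17 without WT library 2 (adjusted p = 0.0288). It was 2.02 in side A without WT library 2 and 3.93 in side B. Slc34a2 was also on the list of cholangiocyte (bile duct cell) markers, of which 3 of 12 passed the filter. The other 2, Spp1 and Sox9, had log2 differences of −0.15 and 0.047 without WT library 2 (adjusted p = 0.734 and 0.931). The call of Slc34a2 was lost without LKO ethanol library 1 (adjusted p = 0.131), WT ethanol library 4 (0.104) or WT ethanol library 3 (0.0829). It was lost as well with a pseudocount of 0.1 (0.0653) or 5 (0.0971), without the filter on low values (0.160), after quantile normalization (0.0903) and after scaling by the median of ratios (0.0832).

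Slc30a10 (chromosome 1, 185454848 to 185468762, plus strand), a transporter that exports manganese from hepatocytes, measured 14.5, 6.30, 12.7 and 9.19 FPKM in LKO and 3.23, 1.58, 1.83 and 1.48 in WT. Every LKO library exceeded every WT library. The log2 difference was 1.93 (SE 0.272, limma adjusted p = 0.0107), 1.86 without WT library 2 (adjusted p = 0.0131), 1.33 in side A without WT library 2 and 2.16 in side B. Leaving out LKO ethanol library 1 raised the adjusted p to 0.0767, and the call was kept without any other single library.

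Tbc1d31 (chromosome 15, 57912199 to 57970067, plus strand), which encodes a centrosomal protein with a TBC domain, measured 30.2, 11.4, 19.5 and 8.20 FPKM in LKO and 1.23, 0.733, 2.18 and 3.87 in WT. Nxpe2 (chromosome 9, 48318006 to 48353454, minus strand) measured 9.76, 4.62, 6.19 and 10.2 in LKO and 2, 0.300, 1.47 and 1.63 in WT. Neither gene's groups overlapped. The log2 differences were 2.56 for Tbc1d31 (SE 0.424) and 1.90 for Nxpe2 (SE 0.288), with limma adjusted p = 0.0243 and 0.0179. Without WT library 2 they were 2.34 and 1.63 (adjusted p = 0.0376 and 0.0131), and within sides 3.14 and 1.37 in side A without that library and 1.80 and 1.82 in side B. Leaving out LKO ethanol library 1 ended both calls (adjusted p = 0.131 and 0.0863), and that of Tbc1d31 ended also without LKO ethanol library 3 (0.117) or WT ethanol library 3 (0.0542). Both were lost without the filter on low values (0.12 and 0.0594) and with a pseudocount of 5 (0.0575 and 0.0582).

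Enpep and Ces3b joined the genes called higher once WT ethanol library 2 was left out. Enpep, the aminopeptidase A that trims angiotensin II, measured 48.6, 27.6, 37.6 and 48.3 FPKM in LKO and 16.9, 2.20, 19.4 and 9.41 in WT. Ces3b, a carboxylesterase, measured 74.7, 20.4, 35.4 and 91.8 in LKO and 16.5, 11.2, 3.24 and 4.83 in WT. In both, every LKO library lay above every WT library, library 2 included, an order found in 0.894% of all genes. The log2 differences without library 2 were 1.38 and 2.68 (limma adjusted p = 0.0376 and 0.0458), and 1.95 and 2.51 with it (adjusted p = 0.121 and 0.0664). In side A without library 2 they were 1.07 and 1.20, and in side B 1.58 and 3.55. Both calls ended without WT ethanol library 4 as well (adjusted p = 0.226 and 0.23), and in all on leaving out any 1 of 10 and of 12 of the other 15 libraries. They were lost too after quantile normalization (0.0625 and 0.0729), after scaling by the median of ratios (0.0672 and 0.0765) and without the filter on low values (0.0698 and 0.0923). Carboxylesterases form a cluster of similar genes, so reads of a relative could have been counted with Ces3b.

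The strongest fall among genes called with all libraries, after Zfp36l1, was that of Gadd45g (chromosome 13, 51846678 to 51848468, plus strand), a stress-inducible growth arrest gene. It measured 8.72, 6.60, 14.7 and 14.8 FPKM in LKO and 26.7, 44.2, 49.98 and 42.1 in WT, with no overlap. The log2 difference was −1.81 (SE 0.307, limma adjusted p = 0.0244), −1.76 without WT library 2 (adjusted p = 0.0288), −1.69 in side A without WT library 2 and −1.57 in side B. Its adjusted p passed 0.05 without LKO ethanol library 1 (0.133), WT ethanol library 4 (0.104), WT ethanol library 3 (0.085) or LKO ethanol library 3 (0.0528). It also did so without the filter on low values (0.0722), after quantile normalization (0.0501) and after scaling by the median of ratios (0.0832).

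The remaining 3 lower genes had low levels. Clip2, a microtubule-binding protein, measured 0.722 to 1.26 FPKM in LKO and 1.87 to 4.72 in WT. Fbxo44, an F-box protein of ubiquitin ligases, measured 1.24 to 1.71 in LKO and 3.08 to 5.47 in WT. Gm11827, a long noncoding RNA on chromosome 4 (11122805 to 11126998), measured 0.707 to 0.965 in LKO and 2.06 to 3.99 in WT. Log2 differences were −1.07, −1.05 and −1.10 in that order, each with a limma adjusted p of 0.0244 or 0.0243, and −0.90, −0.93 and −1.11 without WT library 2 (adjusted p = 0.0190 each). In side A without that library they were −0.51, −1.02 and −1.17, and in side B −1.14, −0.91 and −1.11. Fbxo44 and Gm11827 lost their calls when LKO ethanol library 1, 3 or 4 or WT ethanol library 4 was left out, with adjusted p of 0.0556 to 0.117 and of 0.0611 to 0.0863. Clip2 lost its call without these 4 and also without WT ethanol library 3, WT control library 1 or LKO control library 2 (adjusted p of 0.0503 to 0.146). All 3 lost their calls after quantile normalization or scaling by the median of ratios (adjusted p of 0.0832 to 0.209). They were lost as well without the filter on low values (0.0849, 0.0666 and 0.0666 for Clip2, Fbxo44 and Gm11827). A pseudocount of 0.1 also ended them (0.0712, 0.0653 and 0.0951), and eBayes without a trend ended that of Clip2 (0.0726). With the ethanol libraries alone in the fit, Zfp36l1 was the single one of the 9 genes still called (adjusted p = 0.033).

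Leaving out WT ethanol library 2 added 14 genes called lower, and in 10 of all 19 lower genes that library was not above the whole LKO range. Hamp (chromosome 7, 30942368 to 30944032, minus strand), which encodes hepcidin, the hormone that restrains iron release into blood, measured 139.7, 147.7, 246.0 and 40.7 FPKM in LKO and 793.5, 217.9, 710.1 and 1672 in WT. WT library 2 lay inside the LKO range and the other 3 WT libraries were all above it. The log2 difference was −3.02 without it (SE 0.554, limma adjusted p = 0.0357) and −2.48 with it (adjusted p = 0.160). It was −2.46 in side A without WT library 2 and −3.43 in side B. Hamp has a close relative, Hamp2, and reads may have been shared between the copies. Hamp2 measured 1482, 448.6, 864.8 and 464.3 FPKM in LKO and 671.8, 1745, 149.6 and 48.2 in WT, with no call (log2 difference 2.08 without WT library 2, adjusted p = 0.204). The call of Hamp was lost without WT ethanol library 3 or 4, LKO ethanol library 1, WT control library 1 or 4, or LKO control library 3, with adjusted p from 0.0514 to 0.226, the highest without WT ethanol library 4. It was lost as well after quantile normalization (0.0602), after scaling by the median of ratios (0.121) and without the filter on low values (0.0881).

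Trp53inp1 (chromosome 4, 11156431 to 11174379, plus strand), a p53 target that acts in stress-induced autophagy, measured 13.6, 28.6, 8.46 and 7.49 FPKM in LKO and 78.3, 3.02, 62.4 and 41.8 in WT. Its log2 difference was −2.14 without WT library 2 (SE 0.335, limma adjusted p = 0.0190) and −1.16 with it (adjusted p = 0.506). Slc7a2, an arginine transporter, measured 31.3 to 38.0 in LKO and 72.0, 4.95, 154.8 and 98.4 in WT. Paics, an enzyme of purine synthesis, measured 32.6 to 57.0 in LKO and 112.6, 10.4, 104.1 and 96.2 in WT. In these 3 genes WT library 2 was below the LKO libraries and the other WT libraries were above them. Without library 2 the log2 differences of Slc7a2 and Paics were −1.55 and −1.28 (adjusted p = 0.0190 and 0.0131), and with it −0.52 and −0.48 (adjusted p = 0.797 and 0.749). In side A without library 2 the differences of Trp53inp1, Slc7a2 and Paics were −1.93, −1.03 and −1.16, and in side B −2.54, −1.83 and −1.46. With library 2 kept, those of side A were positive, at 0.22, 0.78 and 0.50. Without WT ethanol library 4 as well, Zfp36l1 was the single gene still called, with adjusted p = 0.0695 for Paics and Trp53inp1 and 0.114 for Slc7a2. All 3 calls also ended without WT ethanol library 3 (adjusted p of 0.0657 to 0.106), and those of Trp53inp1 and Slc7a2 without LKO ethanol library 1 or 3 (0.0515 to 0.0579). Scaling by the median of ratios ended all 3 (0.127 for Paics, 0.0698 for Trp53inp1 and 0.0672 for Slc7a2).

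The other genes called lower without WT library 2 included Slc8b1, the mitochondrial sodium-calcium exchanger, at 9.20 to 11.1 FPKM in LKO and 19.0, 9.59, 27.7 and 39.1 in WT libraries 1 to 4. Kctd17, an adaptor of ubiquitin ligases, measured 2.93 to 7.15 in LKO and 7.403, 2.91, 19.7 and 37 in WT. WT library 2 lay inside the LKO range for Slc8b1 and below it for Kctd17. Aifm2, which protects membranes from lipid peroxidation, measured 13.2 to 19.5 in LKO and 26.6 to 37.8 in all 4 WT libraries. Their log2 differences were −1.39, −1.89 and −0.91 without it (limma adjusted p = 0.0288, 0.0492 and 0.0418) and −1.03, −1.32 and −0.91 with it (adjusted p = 0.265, 0.311 and 0.124). Srrm4, a splicing regulator, AA986860, Tdrp, Glt1d1 and Chchd7 had differences of −1.12, −1.45, −1.12, −1.05 and −0.92, with adjusted p from 0.0131 to 0.0327, and of −0.77, −1.24, −0.78, −0.62 and −1.30 with library 2 kept (adjusted p from 0.0715 to 0.477). Pgpep1 and Gm19705, outside the rule for named genes and added after their values were seen, complete the 19. All of these calls ended without WT ethanol library 4. Of the other 15 libraries, leaving out any 1 of 13 ended the call of Kctd17, of 12 that of Aifm2, of 6 that of Glt1d1, of 5 that of Tdrp, of 4 those of Slc8b1 and Chchd7, and of 3 those of Srrm4 and AA986860. Quantile normalization ended the calls of Aifm2, Chchd7, Glt1d1, Srrm4, Tdrp and Kctd17 (adjusted p from 0.0602 to 0.172), and scaling by the median of ratios those of the same genes and of Slc8b1 (0.0672 to 0.18). AA986860 was called under both scalings. Without the filter on low values the calls of Slc8b1, Tdrp and Kctd17 ended (adjusted p = 0.0517, 0.0554 and 0.0926). A pseudocount of 0.1 ended those of Srrm4, Aifm2 and Kctd17 (0.0583, 0.0501 and 0.0549), and a pseudocount of 5 that of Kctd17 (0.0581).

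**Figure D2:**
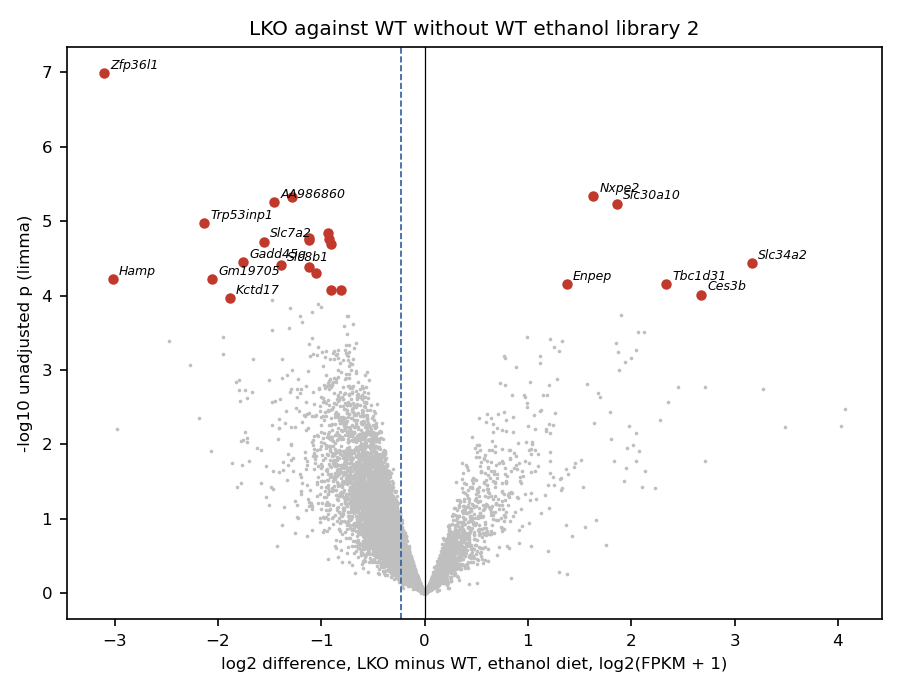
Each point is 1 of 11298 genes, with the log2 difference of LKO minus WT on the ethanol diet without WT ethanol library 2 on the x axis and −log10 of the unadjusted limma p on the y axis. The 25 called genes are red and those with a difference of at least 1.3 in size are named, and the dashed line at −0.23 is the median of all genes, so the grey cloud leans to lower values in LKO.

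Genes called higher on ethanol were examined in the control-diet libraries, which the ethanol comparison did not use for its means. In 4 of the 6, Tbc1d31, Nxpe2, Ces3b and Enpep, all 4 LKO control-diet libraries also lay above all 4 WT control-diet libraries, an order found in 1.61% of all genes. Nxpe2 measured 21.2, 31.0, 20.2 and 17.5 FPKM in LKO and 12.1, 11.1, 9.37 and 9.48 in WT on the control diet. Ces3b measured 167.1 to 191.2 in LKO and 38.5 to 124.3 in WT. The control-diet log2 differences of Tbc1d31, Nxpe2, Ces3b and Enpep were 1.84, 1.004, 1.25 and 0.65, and none was called there, where 5 of all genes were (0.0443%) (limma adjusted p = 0.181, 0.181, 0.432 and 0.414, in the fit without WT ethanol library 2).

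Slc34a2 and Slc30a10 had no such difference on the control diet. Slc34a2 measured 0.05002 to 0.374 FPKM in LKO and 0.0754 to 0.511 in WT on the control diet, and Slc30a10 4.25 to 6.06 and 3.50 to 7.82. The control-diet log2 differences were −0.12 and −0.014, and that of Gadd45g was 0.0021. Hamp had a positive one, 0.80, with 965.8 to 4389 FPKM in LKO and 872.7 to 1975 in WT.

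Of the 19 genes called lower, 15 had a negative control-diet difference, as did 7594 of all 11298 genes. All 4 LKO control-diet libraries lay below all 4 WT ones in 6 of the 19, an order found in 7.64% of all genes. Zfp36l1 was the single gene of the 25 called on the control diet too (−2.77, limma adjusted p = 0.00192). The difference between the diets was tested as an interaction, and no gene was called by limma (0.0% of genes), with or without WT ethanol library 2. At an unadjusted p under 0.05 there were 362 genes with it and 499 without it, and the smallest adjusted p was 0.812 and 0.578. Interaction estimates without library 2 were 3.28 for Slc34a2, 1.87 for Slc30a10, −1.76 for Gadd45g and −3.82 for Hamp (adjusted p = 0.812, 0.578, 0.812 and 0.578). Leaving out WT ethanol library 1 instead gave 6 interaction calls, and leaving out both gave 49. Leaving out WT ethanol library 2 together with LKO ethanol library 2 gave 11 such calls, and 1 when LKO ethanol library 4 was dropped in its place.

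**Figure D3:**
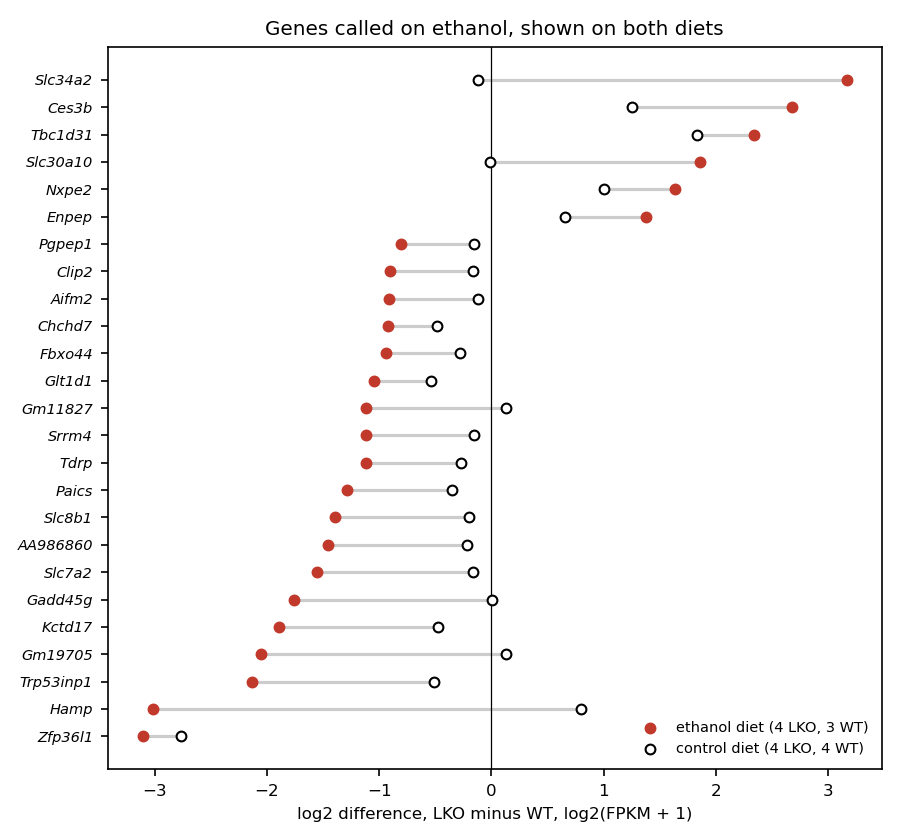
Log2 differences of LKO minus WT in log2(FPKM + 1) for the 25 genes called on ethanol without WT ethanol library 2, filled for the ethanol diet (4 LKO, 3 WT) and open for the control diet (4 LKO, 4 WT). Zfp36l1 lies at −3.11 and −2.77, whereas Slc34a2 lies at 3.17 on ethanol and −0.12 on the control diet.

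Genes of fatty acid synthesis had mostly positive differences, and none was called. The pathway turns citrate from glucose into fatty acids, and its genes respond to insulin and carbohydrate. Of the 16 listed genes, all kept, 12 had a positive log2 difference without WT library 2, against 2173 of all 11298 genes. The list's median was 0.77 against −0.23 over all genes, or 1.304 against −0.031 with all libraries. In 5 of the 16 all LKO libraries lay above all 4 WT libraries, and in 0 below, where the shares over all genes were 0.894% and 1.8%. On the control diet the list's median was 0.59 against −0.10 over all genes.

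Fasn, fatty acid synthase, measured 86.5, 49.6, 247.8 and 121.9 FPKM in LKO and 13.5, 40.2, 28.7 and 17.0 in WT. Elovl6, which elongates its product, measured 51.5, 20.8, 36.9 and 70.2 in LKO and 8.08, 3.60, 18.6 and 8.80 in WT. Neither gene's groups overlapped. The log2 differences without WT library 2 were 2.45 and 1.80 (limma adjusted p = 0.127 and 0.179), and 2.18 and 2.15 with it (adjusted p = 0.214 and 0.204). Thrsp, a lipogenic regulator, measured 985.0, 266.7, 953.0 and 478.5 in LKO and 255.5, 523.0, 43.1 and 19.1 in WT. It differed by 1.002 in side A without WT library 2 and by 4.51 in side B. Me1, malic enzyme, had a difference of 1.26 without WT library 2 (adjusted p = 0.150). Of the 4 with a negative difference, Scd2 had −0.65 (adjusted p = 0.156), which measured 1.12 to 1.87 FPKM in LKO and 1.69, 32.0, 3.04 and 3.96 in WT.

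**Figure D4:**
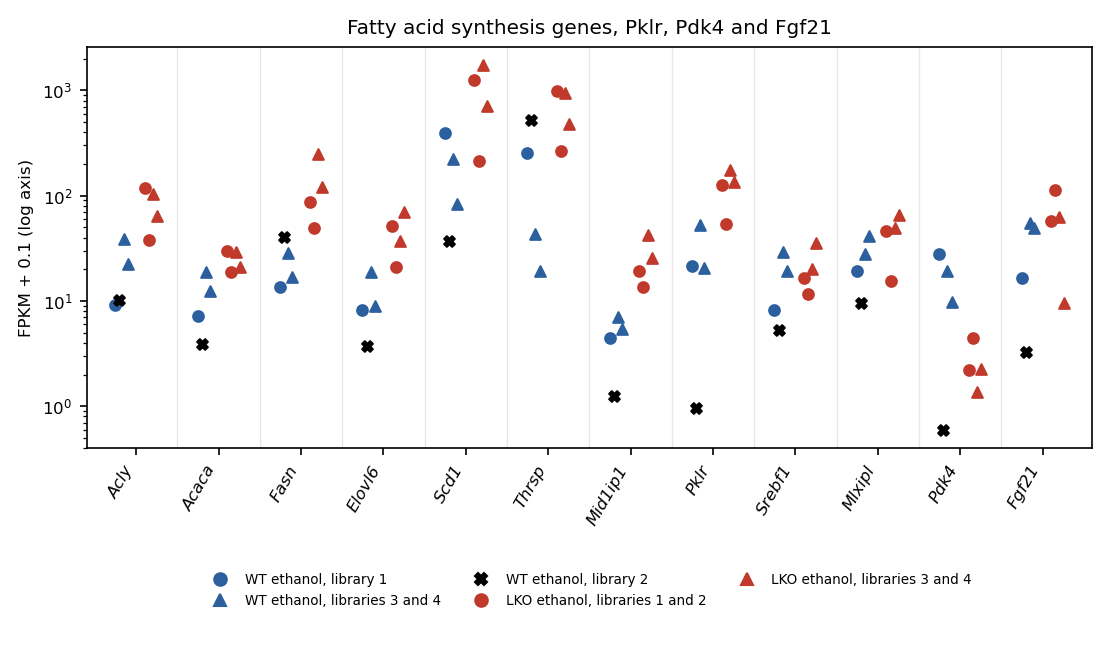
FPKM + 0.1 (log axis) in each ethanol library for 9 genes of fatty acid synthesis and its regulation, with Pklr, Pdk4 and Fgf21, colours and symbols as in the plot of called genes. Fasn lies at 49.6 to 247.8 in LKO and 13.5 to 40.2 in WT, while Fgf21 overlaps between the groups, and WT ethanol library 2 is the lowest of the 8 for Pdk4 and Pklr.

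A term for the side of each library was added to the fit without WT ethanol library 2, and 178 genes were then called (1.58%), 29 higher (0.257%) and 149 lower (1.32%), among them all 25 called without the term. With WT library 2 kept, the same term gave 10 calls (0.0885%), 5 higher and 5 lower, against 9 without it. The genes added by the term thus rest on the fit in which side A holds a single WT library. Pklr and Pdk4 were among those added. Pklr, liver pyruvate kinase of glycolysis, measured 125.4, 53.2, 175.4 and 134.8 FPKM in LKO and 21.6, 0.871, 52.0 and 20.6 in WT. Pdk4, which blocks the entry of pyruvate into the citric acid cycle, measured 2.09, 4.38, 1.28 and 2.14 in LKO and 27.8, 0.493, 19.3 and 9.62 in WT. For Pdk4 the 3 WT libraries other than library 2 were all above LKO, and library 2 was the lowest of the 8. The limma adjusted p was 0.0463 for Pklr and 0.0479 for Pdk4 with the term, and 0.0988 and 0.0935 without it.

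Other genes added on the higher side by the side term were Mid1ip1, an activator of acetyl-CoA carboxylase (limma adjusted p = 0.0318), Elovl3, a fatty acid elongase (0.0415), Leap2, a secreted peptide that opposes ghrelin (0.0272), Cyp2c29, a cytochrome P450 (0.0463), and Sult5a1, a sulfotransferase (0.0463). Mid1ip1 measured 13.5 to 41.9 FPKM in LKO and 1.15 to 6.88 in WT, with no overlap. Elovl3 measured 1.62 to 5.09 in LKO and was at or below 0.241 in all 4 WT libraries. Dct (0.0129), a melanin synthesis enzyme, measured 3.48 to 5.97 in LKO and 0 to 1.09 in WT. Cyp2c29 belongs to a cluster of similar genes, and Mup2 (0.0439) to a family of near-identical copies, so their reads may have been shared with relatives.

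Lower genes added by the side term included Marco, a scavenger receptor of macrophages, and Tagln2, an actin-binding protein. Marco measured 5.99, 22.1, 6.11 and 3.73 FPKM in LKO and 21.1, 17.96, 31.6 and 49.6 in WT, with LKO library 2 inside the WT range. Tagln2 measured 7.59, 26.5, 7.81 and 8.83 in LKO and 21.6, 24.1, 44.5 and 95.1 in WT, with the same LKO library apart from the other 3. The limma adjusted p with the side term was 0.0356 for Marco and 0.0463 for Tagln2, and 0.0935 and 0.0929 without the term. S100g (0.0479), a calcium-binding protein, measured 0.186 to 4.15 in LKO and 2.66 to 23.7 in WT. Slc25a34 (0.0433), a mitochondrial carrier, measured 0.567 to 2.37 in LKO and 3.78 to 7.02 in WT, with no overlap. Epop (0.00981), a subunit of Polycomb repressive complexes, measured 0.827 to 1.25 in LKO and 3.04 to 15.4 in WT.

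Some genes had groups that did not overlap, an unadjusted p under 0.05 and no call in any of these 3 fits. Cyp3a44, a cytochrome P450, measured 126.3, 51.0, 93.1 and 106.4 FPKM in LKO and 18.2, 3.71, 7.07 and 2.35 in WT, a log2 difference of 3.69 with all libraries (SE 0.986, limma adjusted p = 0.200) and of 3.49 without WT library 2 (adjusted p = 0.166). Gstp3, a glutathione transferase, measured 13.5 to 17.7 in LKO and 20.8 to 133.0 in WT (−1.79, adjusted p = 0.149, and −1.38 and 0.124 without library 2). Hspb1, a small heat shock protein, measured 10.04 to 20.5 in LKO and 23.8 to 79.8 in WT (−1.43, adjusted p = 0.278, and −1.37 and 0.220 without it). Phlda3, a p53 target, measured 0.781 to 1.62 in LKO and 1.65 to 14.2 in WT (−1.66, adjusted p = 0.102, and −1.66 and 0.0935 without it). Scand1 measured 17.3 to 21.6 in LKO and 22.4, 809.9, 27.2 and 32.5 in WT, where library 2 stood far above the rest.

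Genes of cholesterol synthesis and uptake had a positive log2 difference in 19 of 21 without WT library 2, with a median of 0.41, against 2173 of all 11298 genes and −0.23, and none was called. With WT library 2 kept, 20 of the 21 were positive with a median of 0.697, against 5255 of all genes. On the control diet their median was −0.074. Fdps, which makes farnesyl diphosphate, measured 79.7, 73.5, 227.1 and 182.6 FPKM in LKO and 110.6, 218.1, 46.6 and 30.3 in WT. Its difference was −0.52 in side A without WT library 2 and 2.41 in side B (1.20 over both, limma adjusted p = 0.264). The pericentral hepatocyte list was positive in 11 of 12 with a median of 0.39, and the bile acid list in 12 of 21 with a median of 0.077. With library 2 kept, 12 of 12 pericentral genes were positive (median 0.524) and 19 of 21 bile acid genes (median 0.512). Leaving out that library lowered the bile acid median, while that of all genes moved from −0.031 to −0.23. Without library 2 the bile acid median was 0.258 after quantile normalization (13 of 21 positive). It was 0.335 after scaling by the median of ratios (15 of 21 positive). Periportal genes, of the opposite zone of the lobule, were positive in 7 of 12 without library 2 (median 0.243) and in 11 of 12 with it (median 0.599). On the bile acid list, Slc10a1, the main bile acid uptake carrier, measured 884.0, 596.8, 761.5 and 754.8 in LKO and 519.6, 96.0, 279.1 and 194.8 in WT (1.28 without WT library 2, adjusted p = 0.124, and 0.0400 with the side term).

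The listed genes of the integrated stress response, the immediate early response and the cell cycle had lower medians than all genes together. Without WT library 2, 9125 of all 11298 genes had a negative difference and the median was −0.23, which is the background for these counts. Of 17 integrated stress response genes, which act when translation is curbed, 15 had a negative difference without WT library 2, with a median of −0.79, and none was called without the side term. With it Vldlr, a lipoprotein receptor, was called lower. Atf3, a transcription factor of this response, measured 3.67, 16.3, 3.79 and 2.99 FPKM in LKO and 16.3, 1.38, 12.5 and 8.83 in WT (−1.07, limma adjusted p = 0.210). All 16 immediate early genes were negative with a median of −0.57, and 12 of 13 cell cycle genes with −0.63. Klf2, an immediate early gene on the list of reported ZFP36-family targets, measured 4.80, 4.85, 6.56 and 4.74 in LKO and 9.71, 3.01, 12.2 and 7.75 in WT. It was called lower with the side term (−0.79, adjusted p = 0.0935 without the term and 0.0469 with it). The 20 reported targets had 15 negative differences with a median of −0.46, and no other was called. With WT library 2 kept, the medians were −0.52, −0.24, −0.63 and 0.048 in the same order (stress response, immediate early, cell cycle, targets), so that of the targets changed sign, and 12, 11, 11 and 9 of their members were negative, as were 6043 of all genes. Other lists of stress and growth lay elsewhere. Of 17 endoplasmic reticulum chaperones, which fold secreted proteins, 10 had a positive difference without library 2 (median 0.086) and 14 with it (median 0.452). Of 18 genes of the growth hormone and IGF1 axis, 9 were positive without it (median −0.053) and 11 with it (median 0.156). None of either list was called with or without library 2, and Elovl3, of the growth hormone list, was called with the side term.

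Markers of macrophages and of stellate cells had lower medians than all genes, of which 9125 of 11298 were negative without WT library 2. In bulk liver, fewer cells of a type and less RNA per cell cannot be told apart. All 13 Kupffer cell and macrophage markers kept had a negative log2 difference without WT library 2 (median −0.80), and their summed level was 361.8, 837.3, 159.7 and 218.4 FPKM in LKO and 429.4, 706.1, 666.9 and 805.2 in WT. LKO library 2 had the highest sum of all 8. All 12 stellate cell and fibroblast markers were negative (median −0.74), with sums of 145.7 to 200.8 in LKO and 118.3 to 289.5 in WT. Col1a1 measured 0.197 to 1.07 in LKO and 0.416, 0.546, 7.01 and 12.4 in WT, high in WT libraries 3 and 4 only (−1.76 without WT library 2, limma adjusted p = 0.180). With library 2 kept, 11 of 13 macrophage markers (median −0.50) and 10 of 12 stellate markers (median −0.589) were negative. None of these markers was called without the side term, and with it Marco alone was. The part of these cell types in the negative differences of stress, immediate early and cell cycle genes was not tested.

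Hepatocyte markers had 6 of 11 positive differences without WT library 2 and a median of 0.055, and 8 of 11 and 0.441 with it, with sums of 58720 to 75960 FPKM in LKO and 46050 to 78790 in WT. Alb, albumin, measured 42580 to 58250 in LKO and 23000 to 57890 in WT. The labelled tissue thus carried its defining markers in all 8 libraries. Of 15 lymphocyte and 11 neutrophil markers 6 and 3 passed the filter, with sums of 5.89 to 17.98 and 3.82 to 21.5 FPKM over the 8 libraries and no calls. Interferon-stimulated genes were negative in 17 of 17 with a median of −0.30, close to that of all genes, and the 15 inflammation genes had a median of −0.67 with 13 negative. With WT library 2 kept, the interferon median was 0.029 with 11 of 17 positive, and that of inflammation −0.126 with 9 of 15 negative, so the sign of the interferon list turned on that library. None of either list was called. Under quantile normalization and scaling by the median of ratios, the interferon list had 7 and 8 positive members without library 2, and 11 under each with it. Without library 2, the fatty acid synthesis list kept a positive median (0.75 to 1.03 across 3 scalings) and the macrophage list a negative one (−0.83 to −0.53).

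**Figure D5:**
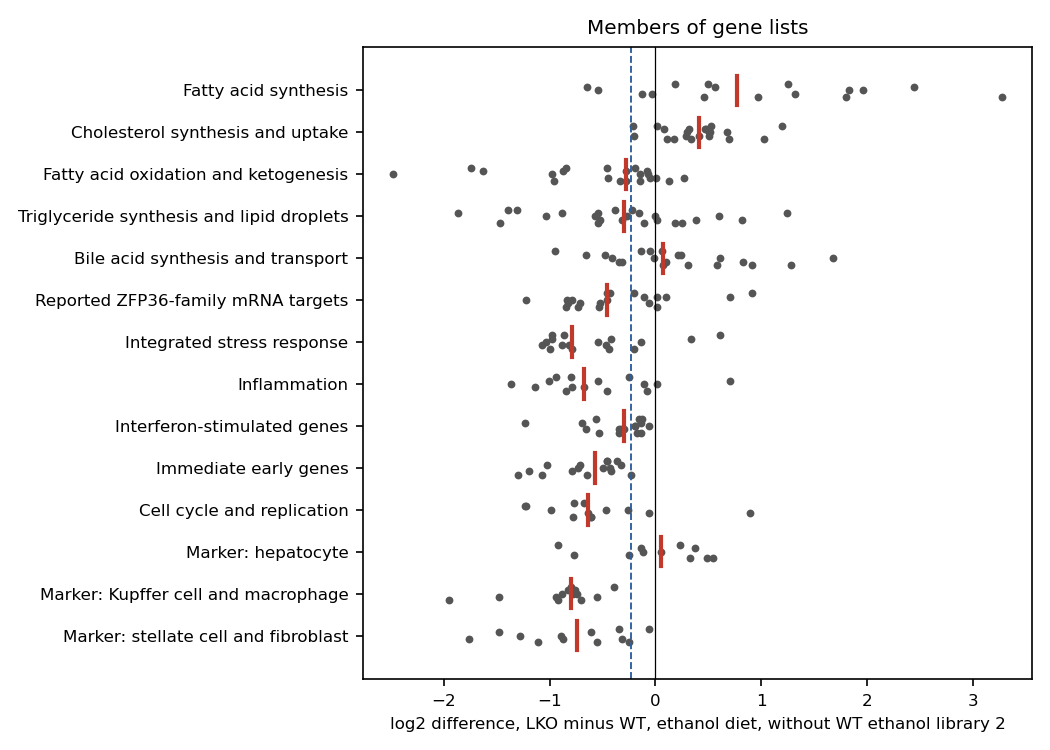
Each grey point is a member of a gene list, placed at its log2 difference of LKO minus WT on ethanol without WT ethanol library 2, with the list's median as a red bar and that of all genes, −0.23, as a dashed line. Fatty acid synthesis, at 0.77, and cholesterol synthesis, at 0.41, lie to the right, and macrophage markers, at −0.80, and stress response genes, at −0.79, to the left.

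The 7-mer TATTTAT was counted on the transcribed strand in the longest annotated 3′ UTR. Among genes called higher with all libraries, 4 of 4 held it, and among those called without WT library 2, 5 of 6. It was present in 3066 of the 10529 genes tested that had an annotated 3′ UTR (29.1%). Among genes called lower it was present in 1 of 4, and in 8 of 17 without WT library 2. The deleted gene, Zfp36l1, is in each of these lower sets and held both motifs. It was the 1 of the 4, and Clip2, Fbxo44 and Gadd45g held neither. The larger set called with the side term had 9 of 26 on the higher side (34.6%) and 40 of 146 on the lower side (27.4%). The 9-mer TTATTTATT was held by 0 of the 6 higher genes, by 6 of the 17 lower genes and by 812 of all genes with a 3′ UTR (7.7%). Median 3′ UTR length was 1244.5 bases in the 6 higher genes, 1398 in the 17 lower genes and 1112 in all genes. These counts are descriptions of small sets, and a longer 3′ UTR has more room for either motif.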

How the data were processed

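The authors deposited 1 table of FPKM values per gene and library. The submitters' processing notes name fastp, STAR 2.6.1, HTSeq and DESeq2 with build mm10, without their roles. Strandedness is not given in the sources used here, so overlapping, antisense or near-identical genes can share reads. Symbols, positions and 3′ UTRs came from GENCODE M21 (GRCm38). FPKM steps gave whole reads for depth, all within 0.1 read in the 20520 genes above 0 in at least 4 libraries. Values were tested as log2(FPKM + 1), which understates changes of low genes, with limma 3.58.1 in R 4.3.3 (4 group means, eBayes with trend, Benjamini-Hochberg over 11298 genes, two-sided). The procedure was tested on simulated data. Depth was 9890475 to 24768569 reads per library. Members, gene lists, tests and alternatives were chosen with earlier results of these data known. Named genes were the ZFP36 family, Fgf21, Klb, every gene called with all libraries, and the largest by log2 difference, per direction, called without WT ethanol library 2 (15), not overlapping at unadjusted p under 0.05 (10), or called with the side term (10), plus up to 4 members per list with the smallest p. Predicted genes and pseudogenes were passed over outside the first 2 kinds, and not every named gene is printed.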

Additional observations from a re-analysis of the deposited data

Results flagged for a closer look

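In groups of 4, a library was set aside for a closer look where its gap to the nearest of the others took up more of the group's range, on the log2(FPKM + 1) scale, than Dixon's 95% limit. Over the LKO and WT ethanol groups of 27 genes, 54 groups in all, 3 passed this limit. Chance passes about 1 in 20 groups, a rate that does not hold for these genes, since all 3 were named because they were called once WT ethanol library 2 was left out, and the library that stood apart in each was that one. It was the highest for Chchd7, at 25.8 FPKM against 7.45 to 9.13 in the other 3 WT libraries. It was the lowest for Glt1d1, at 4.96 against 17.8 to 19.1, and for Paics, at 10.4 against 96.2 to 112.6.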

How the results depend on the processing

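The number of genes called depended on the processing more than the direction of single genes did. With all 16 libraries, where 9 genes were called, it was 3 without the filter on low values and 3 with the ethanol libraries alone, and it ran from 1 to 387 as libraries were left out in turn. Without WT ethanol library 2, where 25 were called, it was 1 with the ethanol libraries alone, 12 after quantile normalization, 5 after scaling by the median of ratios and 178 with the side term, and it ran from 1 to 1961 as further libraries were left out. Array weights, which down-weight deviant libraries, gave 3465 calls with all libraries and 3590 without that library, and 506 and 415 for the interaction. With all libraries, the weight of WT ethanol library 3 was 4.998, against 0.2776, 0.04182 and 1.056 for WT ethanol libraries 1, 2 and 4. The WT ethanol mean in that fit thus leaned on library 3. The other settings gave 0 interaction calls, and leaving out 1 library in turn gave 0 to 6 with all libraries and 0 to 49 without that library. Interaction counts other than those of the 2 fits in the report were added after the data were seen. The cause of these changes was not tested. Zfp36l1 kept its direction and its call under every alternative run. Fgf21, not called in any, ran from 0.332 to 1.83 on leaving out 1 library, and was −0.38 with array weights, 3.27 within side A and −1.03 within side B. With array weights Klb, Zfp36 and Zfp36l2 were −0.153, −1.0 and −0.6, and leaving out 1 library gave −0.0634 to 0.791, −0.605 to 0.793 and −0.406 to 0.53, each without a call. No named gene that was called changed direction under the settings run or on leaving out 1 library. For genes called only without WT ethanol library 2, these alternatives were run without it. Within side A with that library kept, Trp53inp1, Slc7a2 and Paics, called lower without it, had positive differences. The share of the 4 genes called higher that held the AU-rich motif was 100% for the 7-mer and 0.0% for the 9-mer. Over all genes tested with an annotated 3′ UTR these shares were 29.1% and 7.7%. For the 7-mer it was 83.3% of the 6 genes called higher without WT ethanol library 2. With the side term added to that fit it was 34.6% of 26 genes. No paired analysis was possible because no LKO and WT ethanol library share a number in the labels. The titles hold a different number for each library, some of them consecutive between diets of 1 genotype, and no label says that these mark a pair. The replicate numbers used follow accession order only. Depth limits low genes in WT ethanol library 2 most, where Nxpe2 rested on 10 reads.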
